A study of Mus musculus with 6 samples.

Results

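The genes described here encode the machinery that starts transcription: the subunits of the 3 nuclear RNA polymerases, the Mediator complex, the TBP-associated factors (TAFs) and the general transcription factors. They were chosen by symbol, as the protein-coding RefSeq genes on GRCm38 whose names begin with Polr1 to Polr3 and a letter, Med and a number, Taf and a number, or Gtf2 or Gtf3 and a letter from a to h. The set held 102 of 21774 protein-coding genes, of which 28 were polymerase, 30 Mediator, 24 TAF and 20 Gtf genes. They lay on 20 chromosomes and had 229 annotated transcription start sites (TSSs).

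The series measured open chromatin by ATAC-seq, in which a transposase cuts DNA that is not covered by nucleosomes, in mouse embryonic stem cells (mESCs). It had 6 samples in 3 conditions of 2 replicates each. Untreated cells were the V6.5 mESC line, and ZBTB21-degron mESCs, which were given doxycycline and carry the zinc finger protein ZBTB21 in a form that can be degraded by auxin (IAA), were taken at 0 and 6 h of IAA. Only the untreated condition is described here, from 1 list of 41014 peaks for the condition, which holds no values per replicate, so neither values nor their spread could be given by replicate and the depth of the samples is unknown. The degron samples were not analysed here. The cells were grown with irradiated mouse embryonic fibroblasts as feeders. Of 10 mESC marker genes, 4 had a peak within 1 kb of a TSS (Pou5f1, Nanog, Zfp42 and Dppa5a), and Esrrb, Lin28a and Tfcp2l1 had one within 5 kb, whereas Sox2, Klf4 and Tdgf1 had none. Of 10 fibroblast markers, 3 had a peak within 1 kb (Thy1, Pdgfra and Pdgfrb), and the collagen genes Col1a1, Col1a2 and Col3a1 together with Dcn, Lum, Postn and Twist2 had none within 5 kb. Over all protein-coding genes 29.9% had a peak within 1 kb. The Wilson 95% intervals of both marker shares include that value, 16.8 to 68.7% for mESC and 10.8 to 60.3% for fibroblast markers. The counts thus do not tell the 2 cell types apart. The part of feeder cells in the peaks described below was not tested.

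RNA polymerase I makes the large ribosomal RNA, polymerase II makes messenger RNA, and polymerase III makes tRNA and 5S ribosomal RNA. At a polymerase II promoter the TFIID complex, built of TBP and TAFs, binds core promoter DNA, the factors TFIIA, TFIIB, TFIIE, TFIIF and TFIIH place the polymerase and open the DNA, and Mediator connects this assembly with activators bound elsewhere. Polymerases I and III use their own sets, SL1 and TFIIIC among them. Most of these genes are used in nearly every cell type.

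Promoter sequences are shown for 7 of the genes on which the results turn, read from RefSeq on GRCm38.p6 as 250 bases before to 50 bases after the start, 5′ to 3′ on the strand of the gene. Capitals mark matches on either strand to 10 short motifs searched, and matches that overlap run together. The first pair comprises the genes with the highest ATAC-seq peak scores for which a window was at hand, Polr3k at chr2:181864110-181864409 (plus strand) and Polr1b at chr2:129100746-129101045 (plus strand).
Polr3k: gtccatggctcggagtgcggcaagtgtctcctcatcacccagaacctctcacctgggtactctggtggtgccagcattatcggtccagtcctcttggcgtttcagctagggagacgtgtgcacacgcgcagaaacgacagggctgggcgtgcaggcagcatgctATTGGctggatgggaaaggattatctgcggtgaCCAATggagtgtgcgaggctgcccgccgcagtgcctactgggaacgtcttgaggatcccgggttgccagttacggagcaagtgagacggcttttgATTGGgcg
Polr1b: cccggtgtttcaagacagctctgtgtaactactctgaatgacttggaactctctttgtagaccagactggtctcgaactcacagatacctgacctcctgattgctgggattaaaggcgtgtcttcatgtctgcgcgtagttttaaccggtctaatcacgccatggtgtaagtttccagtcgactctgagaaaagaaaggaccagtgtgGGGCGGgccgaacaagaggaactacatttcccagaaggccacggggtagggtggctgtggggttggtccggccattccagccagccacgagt

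The second pair is the catalytic core of RNA polymerase II, its largest subunit Polr2a at chr11:69758584-69758883 (minus strand), whose promoter lay inside a peak, and its second largest subunit Polr2b at chr5:77310234-77310533 (plus strand), which had no peak within 5 kb.
Polr2a: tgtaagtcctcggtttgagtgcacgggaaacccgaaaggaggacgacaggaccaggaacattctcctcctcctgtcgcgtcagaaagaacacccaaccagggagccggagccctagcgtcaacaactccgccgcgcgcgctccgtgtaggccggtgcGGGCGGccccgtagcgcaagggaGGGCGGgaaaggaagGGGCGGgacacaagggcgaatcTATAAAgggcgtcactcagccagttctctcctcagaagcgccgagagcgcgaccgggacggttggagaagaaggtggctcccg
Polr2b: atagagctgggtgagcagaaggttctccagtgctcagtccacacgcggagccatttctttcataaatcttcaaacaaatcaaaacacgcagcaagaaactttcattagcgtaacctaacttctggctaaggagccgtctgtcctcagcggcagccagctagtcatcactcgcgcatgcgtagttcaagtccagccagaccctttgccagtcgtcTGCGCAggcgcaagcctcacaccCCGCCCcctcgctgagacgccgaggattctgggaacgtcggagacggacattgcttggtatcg

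The last set holds promoters under a ZBTB21 ChIP-seq peak of the study. Taf13 at chr3:108571449-108571748 (plus strand) and Taf10 at chr7:105744289-105744588 (minus strand) also lay in an ATAC-seq peak, and Gtf3c1 at chr7:125707639-125707938 (minus strand) did not.
Taf13: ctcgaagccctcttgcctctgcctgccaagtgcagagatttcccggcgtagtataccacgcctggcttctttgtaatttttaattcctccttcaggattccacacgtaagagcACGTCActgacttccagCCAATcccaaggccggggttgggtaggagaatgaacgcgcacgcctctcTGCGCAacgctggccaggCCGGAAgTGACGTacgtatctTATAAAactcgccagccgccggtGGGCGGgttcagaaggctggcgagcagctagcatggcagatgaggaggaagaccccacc
Taf10: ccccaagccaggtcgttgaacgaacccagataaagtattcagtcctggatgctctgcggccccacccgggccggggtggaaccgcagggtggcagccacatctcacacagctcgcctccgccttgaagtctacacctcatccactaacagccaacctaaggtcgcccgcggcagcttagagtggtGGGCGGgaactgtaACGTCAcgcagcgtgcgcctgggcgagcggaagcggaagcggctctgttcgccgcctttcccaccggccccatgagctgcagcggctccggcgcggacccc
Gtf3c1: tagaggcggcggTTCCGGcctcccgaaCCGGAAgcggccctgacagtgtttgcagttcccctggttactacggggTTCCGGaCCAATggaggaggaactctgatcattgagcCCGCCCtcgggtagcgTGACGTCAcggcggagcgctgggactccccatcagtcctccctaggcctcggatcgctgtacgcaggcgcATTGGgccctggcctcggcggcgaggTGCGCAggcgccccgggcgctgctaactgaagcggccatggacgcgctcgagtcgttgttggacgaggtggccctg

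An ATAC-seq peak lay no more than 1 kb from a TSS at 49 of the 102 genes (48.0%, Wilson 95% interval 38.6 to 57.6%), against 29.9% of all protein-coding genes. Within 5 kb the count was 61 (59.8%, 50.1 to 68.8%), against 41.0% of all genes. Intervals cover counting error only, and genes are not replicates, so no p-value was computed. The other 53 genes have no listed peak within 1 kb, which says that none passed the authors' threshold there and not that the promoter was closed.

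Every one of the 49 genes had a TSS inside its highest-scored peak, which held for 85.1% of the 6510 protein-coding genes with a peak within 1 kb. The number of genes with a peak was therefore 49 at distances of 0, 0.1, 0.25, 0.5 and 1 kb alike, whereas over all genes the share went from 26% at 0 to 29.9% at 1 kb. The nearest gene outside the limit was Gtf2a1, the large subunit of TFIIA, with a peak 1030 bp away. Beyond 1 kb the count was 55 at 2.5 kb (53.9%, against 34.9% of all genes) and 75 at 10 kb (73.5%, against 52.5%). It was 87 at 20 kb (85.3%, against 65.2%) and 98 at 50 kb (96.1%, against 79.0%).

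**Figure D1:**
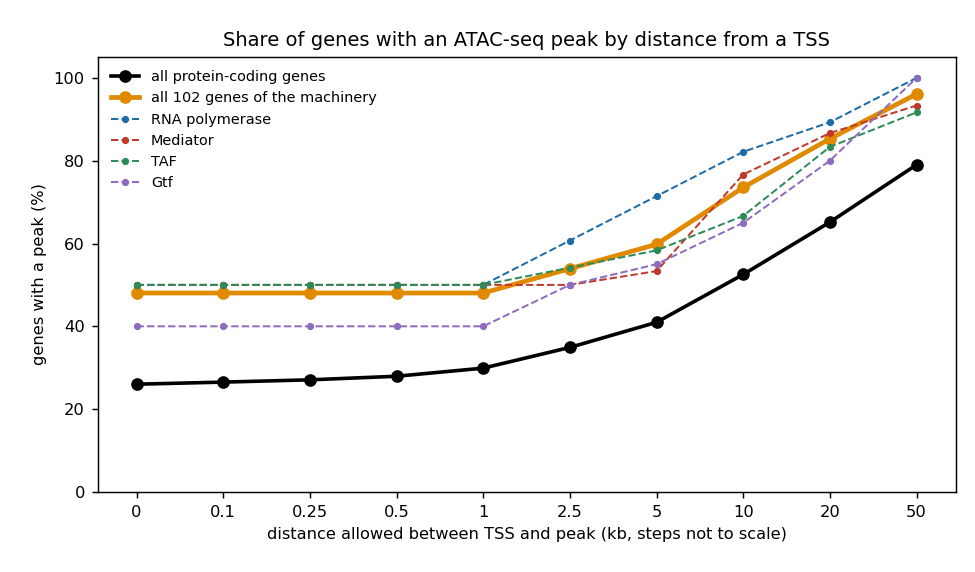
Percent of genes with an ATAC-seq peak (vertical axis) against the distance allowed between TSS and peak in kb (horizontal axis, steps not to scale), for all protein-coding genes, the 102 genes together and their 4 groups; the Mediator, TAF and polymerase lines lie on each other up to 1 kb. The line of the 102 genes stays at 48.0% from 0 to 1 kb and lies above that of all genes at each of the distances.

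The 4 groups differed little within 1 kb. A peak was found at 14 of 28 polymerase genes (50%, 32.6 to 67.4%), 15 of 30 Mediator genes (50%, 33.2 to 66.8%), 12 of 24 TAF genes (50%, 31.4 to 68.6%) and 8 of 20 Gtf genes (40%, 21.9 to 61.3%). The largest differences were those of the 3 other groups from Gtf, each of 10 percentage points, with a Newcombe 95% interval from -17.5 to 35.1 for polymerase minus Gtf. Within 5 kb the polymerase genes had the highest share, 20 of 28 (71.4%), and the Mediator genes the lowest, 16 of 30 (53.3%), a difference of 18.1 points with an interval from -6.64 to 39.8. The intervals of all pairs of groups at both distances included 0, so an order of the groups was not detectable with these numbers of genes.

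The score of a peak is a whole number from 540 to 953 in the list, whose definition is not given in the sources used here, and it served only to order peaks. The best score within 1 kb had a median of 796 over the 49 genes (quartiles 714 and 845), and of 751 over all genes with such a peak (655 and 839). The median was 770.5 for polymerase, 825 for Mediator, 800 for TAF and 812.5 for Gtf genes, with ranges that overlapped throughout (623 to 924, 604 to 923, 541 to 886 and 583 to 900). A best score above the median of the whole list, 696, was found at 38 of the 49 genes (77.6%, against 64.9% of all genes with a peak), and a score of 900 or more at 5 (10.2%, against 9.31%). The median score thus lay above that of all genes, while the share of the highest scores was near theirs.

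**Figure D2:**
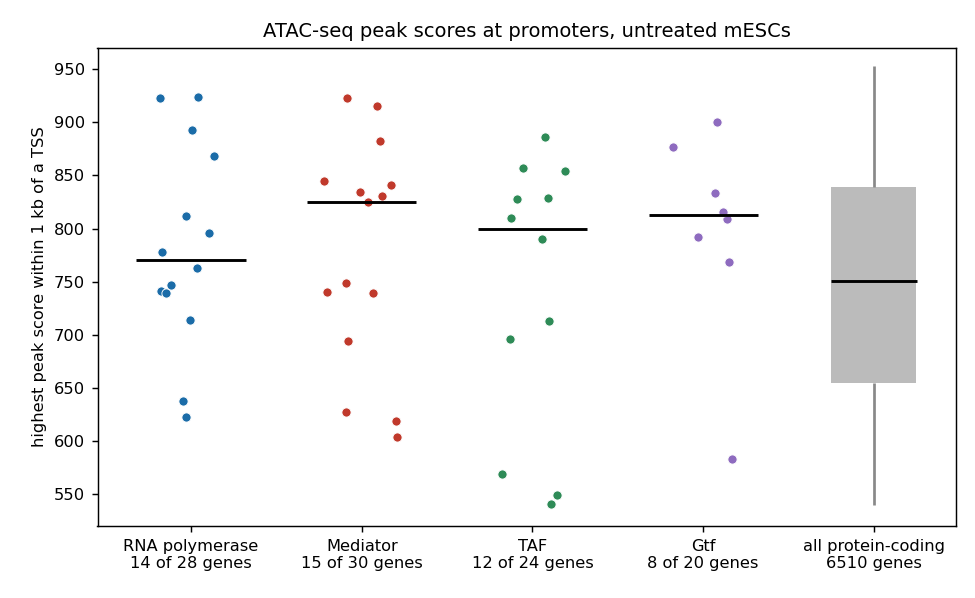
Highest score of an ATAC-seq peak up to 1 kb from a TSS (vertical axis, no unit, axis not from 0) for each gene with such a peak, by group, with the group median as a black line; the grey box gives quartiles and median and its lines the range over 6510 protein-coding genes. The 49 points cover nearly the whole range of the list, from 541 for Taf4b to 924 for Polr3k.

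Polymerase genes were among those with the highest scores. Polr3k, a small subunit of polymerase III, had a score of 924, and Polr1b, the second largest subunit of polymerase I, a score of 923, equal to that of the Mediator gene Med23. Polr3d, a subunit that polymerase III needs for initiation and termination, followed with 893, and Polr1e, of the heterodimer that helps polymerase I to initiate, with 868. At the lower end lay Polr3e with 623, the partner of Polr3d, and Polr3c with 638. A single enzyme, polymerase III, thus had subunits at both ends of the scores.

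Among the largest subunits, which form the active centre, the presence of a peak was mixed within each enzyme. For polymerase II, Polr2a had a peak of 1559 bp with a score of 763, and Polr2b had its nearest peak 21785 bp away. For polymerase I, Polr1b had its peak over the TSS, and Polr1a had one only 4337 bp away, with a score of 770. For polymerase III, Polr3b had a peak with a score of 778, and Polr3a had its nearest one 3258 bp away, with a score of 748. In each of the 3 enzymes 1 gene of the pair had a listed peak at its TSS and the other did not.

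By enzyme, a peak lay within 1 kb of 3 of 5 Polr1, 6 of 13 Polr2 and 5 of 10 Polr3 genes. Over all protein-coding genes the share was 29.9%, which the interval of each enzyme included. Of the 7 subunits that more than 1 polymerase shares, Polr1d (747), Polr2e (741) and Polr2k (739) had one, with nearly equal scores, and Polr1c, Polr2f and Polr2l had one only within 5 kb. Polr2h, the last of the 7, had its nearest peak 6246 bp away. The polymerase genes with no peak within 5 kb included Polr2b, Polr2c, Polr2d, Polr2h, Polr2i, Polr3f and Polr3g.

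Mediator has a head and a middle module that contact the polymerase, a tail that receives activators, and a kinase module that can detach. A peak within 1 kb was found at 4 of 5 tail genes, 3 of 7 head, 3 of 6 middle and 1 of 4 kinase module genes, and at 4 of the 8 others. The intervals were wide, 37.6 to 96.4% for the tail and 4.56 to 69.9% for the kinase module, and overlapped. Over all protein-coding genes the share was 29.9%. That value lay below the interval of the tail and within those of the head, the middle, the kinase module and the others.

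In the tail, Med23 had a score of 923 and Med16 one of 915, the highest of the Mediator genes, Med15, a target of the SREBP lipid regulators, had 739, and Med25 had 694. Med1, the subunit that nuclear receptors bind, had 882. Med14, the backbone that joins the modules, had only 627, and Med17, the scaffold of the head, had 749. The peaks of the lowest scores were at Med21 of the middle module (604) and Med12l (619), a paralog of Med12. Med12 itself, on the X chromosome, had none, with the nearest peak 11389 bp away, and neither had its partners Med13 (38066 bp) and Med13l (8152 bp). Among the kinase module genes of the set, the gene with a peak was thus a paralog of Med12, with a score in the lower quartile of all genes with a peak. Of the kinase and cyclin genes of the module outside the symbol rule, Cdk19 (923) and Ccnc (627) had a peak within 1 kb and Cdk8 had none.

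The Mediator genes with no peak within 5 kb were Med7, Med8, Med10, Med11, Med12, Med13, Med13l, Med19, Med22, Med24, Med26, Med28, Med30 and Med31. Med18 was the only Mediator gene with a peak within 5 kb and none within 1 kb.

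The TAF genes belong to several complexes. All 4 genes of SL1, the TBP complex that recruits polymerase I, had a peak over a TSS: Taf1a scored 854, Taf1d 828, Taf1c 790 and Taf1b 696. The interval for 4 of 4 reaches down to 51.0%, and overlaps that of the TFIID genes. Of the 13 TFIID subunits Taf1 to Taf13, 5 had a peak within 1 kb (38.5%, 17.7 to 64.5%), Taf13 (886), Taf10 (857), Taf1 (829), Taf7 (810) and Taf11 (569). Over all protein-coding genes the share was 29.9%, which the TFIID interval includes and the SL1 interval does not. Taf1, the largest subunit and scaffold of TFIID, had a second peak within 1 kb of another of its TSSs, with a score of 638. The core subunits Taf4, Taf5 and Taf6 had none, with their nearest peaks 12363, 18286 and 6057 bp away.

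A further 5 paralogs, among them the germ cell forms of TFIID and TFIIA subunits, were grouped by name as of restricted expression. Their expression was not examined here, and the label may not hold for each, such as Taf9b. Taf4b and Taf7l2 had the lowest scores of the whole set, 541 and 549. Taf7l had the farthest nearest peak, 108753 bp away, and Taf9b and Gtf2a1l had none within 5 kb. Of the SAGA subunits, Taf5l had a peak (713) and Taf6l had none within 5 kb. The remaining TAF genes with no peak within 5 kb were Taf2, Taf3, Taf4, Taf5, Taf6, Taf9 and Taf15. The peaks at Taf4b and Taf7l2 were over a TSS like all others, at the edge of the list's score range.

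Of the general factors, TFIIB, the bridge between TBP and the polymerase, had a peak at its gene Gtf2b with a score of 833. For the pairs TFIIE and TFIIF, 1 of 2 genes had a peak, Gtf2e1 (900) and Gtf2f2 (809), and the partners Gtf2e2 and Gtf2f1 had their nearest ones 30274 and 13461 bp away. In TFIIH, the helicase and kinase complex that opens the DNA, Gtf2h1 (792) and Gtf2h4 (816) had one, Gtf2h2 had one within 5 kb and Gtf2h3 and Gtf2h5 had none. In TFIIIC, which recognises tRNA genes, Gtf3c5 (877), Gtf3c6 (769) and Gtf3c2 (583) had one, Gtf3c3 had one within 5 kb, and Gtf3c1, the largest subunit, and Gtf3c4 had none. Gtf3c6 had a second peak within 1 kb, with a score of 718. Gtf3a, which is TFIIIA and starts 5S ribosomal RNA genes, and the TFIIA gene Gtf2a2 also had no peak within 5 kb.

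**Figure D3:**
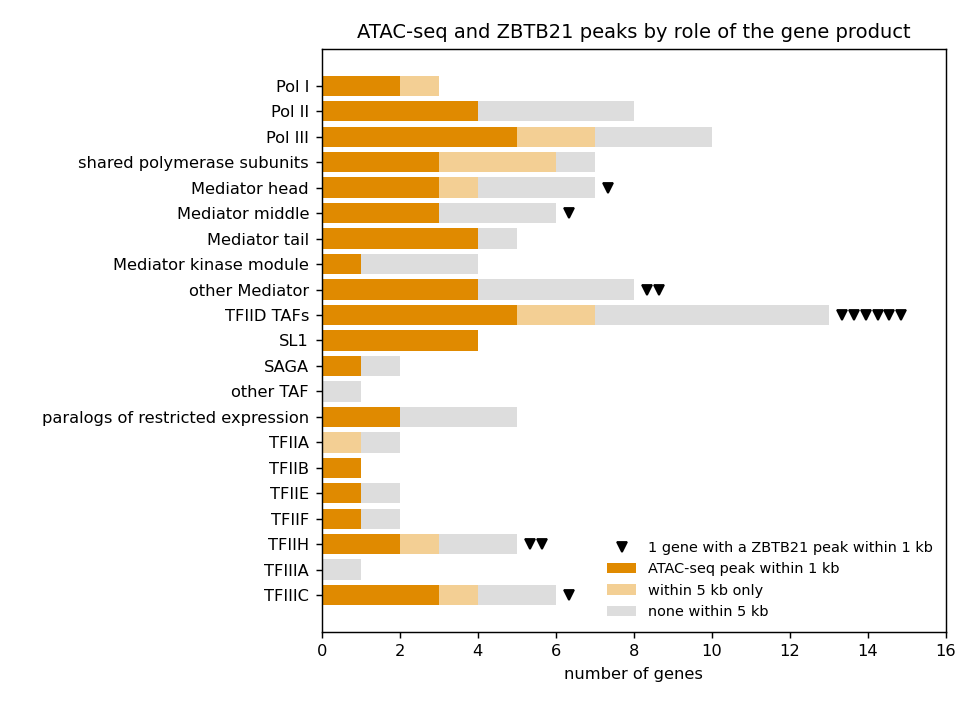
Number of genes (horizontal axis) of each complex or module with an ATAC-seq peak within 1 kb of TSSs, only within 5 kb, or not within 5 kb; each triangle is 1 gene with a ZBTB21 peak within 1 kb. All 4 SL1 genes are in the first class, and 6 of the 13 ZBTB21 peaks are at TFIID genes.

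Over all groups 41 genes had no peak within 5 kb, with a nearest peak at a median distance of 13492 bp (5474 bp for Med7 to 108753 bp for Taf7l). The 12 genes with a peak within 5 kb but not within 1 kb were Gtf2a1, Gtf2h2, Gtf3c3, Med18, Polr1a, Polr1c, Polr2f, Polr2l, Polr3a, Polr3gl, Taf12 and Taf8, with best scores of 577 to 820 (median 684). Their peaks scored lower in the middle than those over a TSS, 684 against 796, and the 2 ranges overlapped.

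The position of the peaks was symmetrical about the TSS. The centre of the best peak lay upstream of the nearest TSS at 25 genes and downstream at 24, at a median of 58.5 bp from it in either direction, against 104 bp for all genes with a peak. By gene annotation, the centre lay upstream of the gene at 21, in an untranslated exon at 20, in a coding exon at 4 and in an intron at 4. The median width was 755 bp, against 759 bp for all genes with a peak, and the range was 365 to 1594 bp. At the median, the peaks at these genes were thus about as wide as those of all genes and centred closer to the TSS.

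**Figure D4:**
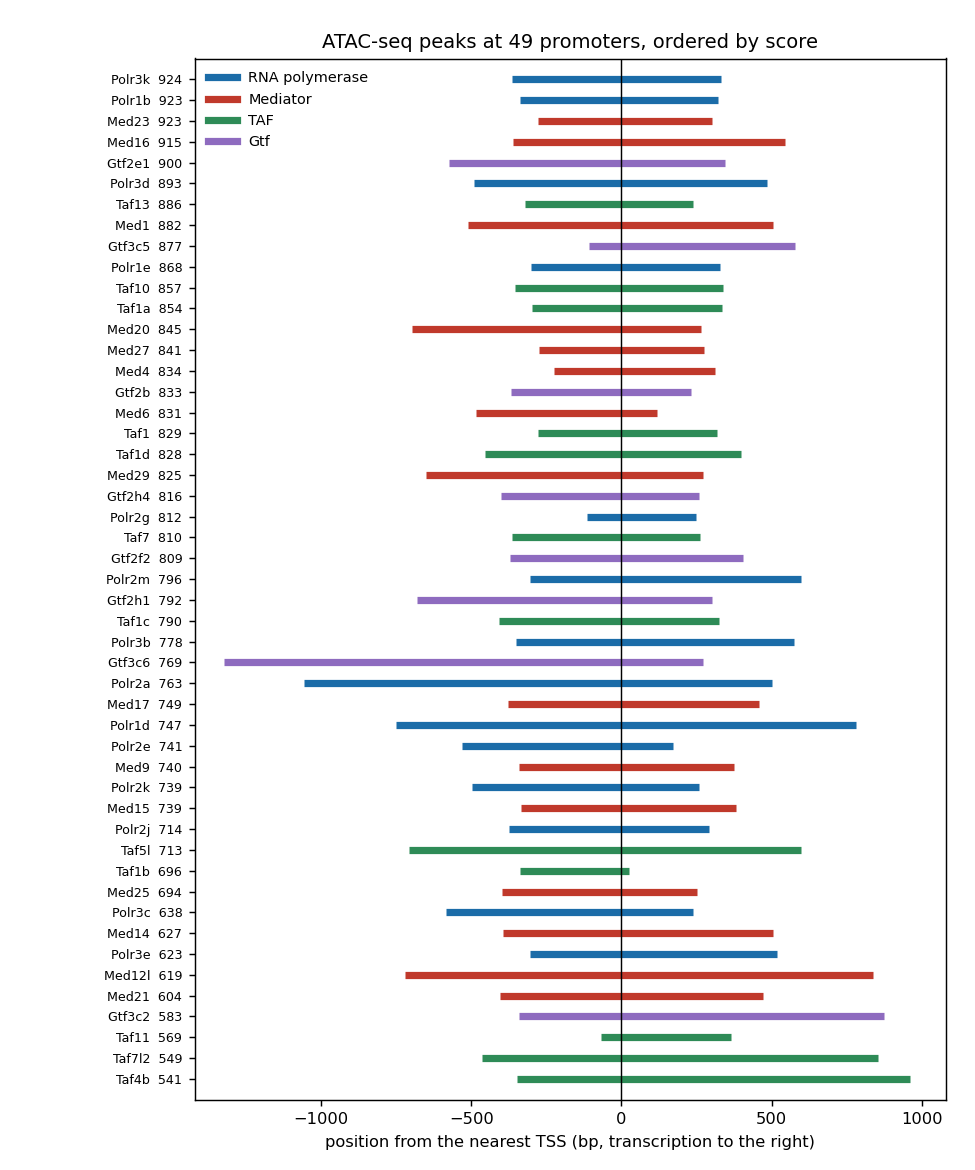
Extent of the highest-scored ATAC-seq peak of each of 49 genes in bp from the nearest TSS (vertical line, transcription to the right), ordered by score, which stands beside the symbol; colours give the group. Every bar crosses the line, and the widest, at Gtf3c6, is 1594 bp.

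The 88 genes with a RefSeq window had a median GC content of 59.2%, against 56.3% of 17492 windows of all genes. The ratio of observed to expected CpG was 0.842 at the median, against 0.576. Over all genes the CpG ratio was 0.717 with a peak and 0.436 without, whereas in the set it was 0.812 with a peak and 0.870 without. In windows under 50% GC, 4 of 9 genes of the set had a peak (44.4%, against 13.5% of all), from 50 to 60% GC 21 of 37 (56.8%, against 41.2%), from 60 to 70% 14 of 33 (42.4%, against 37.0%), and above that 4 of 9 (44.4%, against 27.7%). The share was above that of all genes in each of the 4 GC classes, of which the first and last hold few genes.

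Of the 10 motifs searched on both strands in these windows, CCGGAA, the core of ETS factor sites, was found at 43 of 88 genes (48.9%, against 19.1% of all windows). It stands in capitals, on either strand, in Gtf3c1 and Taf13 above. GGGCGG, the core of Sp1 sites, was found at 62.5% (46.3% of all), CACGTG, the E-box of MYC and USF, at 19.3% (7.90%), TGCGCA, a part of the NRF1 site, at 20.5% (10.1%), and ATGGCGG, a part of the YY1 site, at 12.5% (5.41%). TGACGT, a part of the CREB and ATF site, was found at 14.8% (8.76%), ACTACAA at 5.68% (3.84%) and TCGCGA at 4.55% (3.42%). The TATA box motif TATAAA was found at 14.8% (13.3%), and CCAAT, the box that NF-Y binds, at 33% (39.0%). Among the printed promoters, that of Polr2a has both TATAAA and GGGCGG, and that of Polr1b has GGGCGG alone.

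Genes of the set with and without a peak within 1 kb carried most motifs at similar shares. CCGGAA was present in 53.5% of 43 windows with a peak and in 44.4% of 45 without, whereas over all genes the shares were 27.7% and 15.4%. CCAAT was present in 41.9% and 24.4%, and CACGTG in 11.6% and 26.7%. A match is a string of letters and not a bound site.

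A divergent protein-coding gene with its TSS within 1 kb upstream, a head-to-head partner, was present at 27 of the 102 genes (26.5%, against 11.1% of all genes), and at 11 of the 28 polymerase genes (39.3%). Over all genes such a partner went with more peaks, 45.7% of 2411 genes with a partner against 27.9% without. In the set the order was the other way, 9 of 27 with a partner (33.3%, 18.6 to 52.2%) and 40 of 75 without (53.3%, 42.2 to 64.2%), a difference of -20.0 points with an interval from -38.3 to 1.91 that includes 0. The 9 genes were Gtf2e1, Gtf2h1, Med20, Med29, Polr1d, Polr3c, Taf11, Taf1d and Taf5l. The TSSs of Gtf2e1 and Rabl3, for example, are 69 bp apart, so that the same peak counts for both genes, whereas the peak at Taf11 lay at an internal TSS away from its partner. Polr2b is among the 18 with a partner and no peak, with the TSS of Noa1 71 bp away.

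ZBTB21 is a zinc finger protein of the BTB family. Of the 1827 ZBTB21 ChIP-seq peaks that the study called in mESCs, 13 lay within 1 kb of a gene of the set, at 13 genes (12.7%, 7.60 to 20.6%), against 6.17% of all protein-coding genes. Within 5 kb the genes were the same 13, against 7.05% of all. Each of the 13 peaks contained a TSS. They had a median width of 922 bp, against 811 bp for all ZBTB21 peaks.

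The number of genes with a ZBTB21 peak went from 0 in the polymerase group to 6 in the TAF group. TAF genes held 6 of 24 (25%, 12 to 44.9%), Gtf genes 3 of 20, Mediator genes 4 of 30 and polymerase genes 0 of 28. Over all protein-coding genes the share was 6.17%. The count of 0 allows a share of up to 10.7% by the limit of 3 counts (Wilson upper bound 12.1%). Both limits include the share over all genes, so the polymerase genes could not be told apart from the background. The difference between polymerase and TAF genes was -25 points (interval -44.9 to -7.26), and the intervals of the 5 other pairs included 0. These intervals were not adjusted for the number of pairs. All 6 TAF genes were TFIID subunits: Taf1, the TFIID scaffold, Taf2, which contacts the initiator, Taf7, a partner of Taf1, Taf10, which TFIID shares with SAGA, and the histone fold pair Taf11 and Taf13. The count of 0 at polymerase genes holds for symbols that begin with Polr. Of 4 polymerase subunits that this annotation lists under other symbols, Twistnb and Znrd1 of polymerase I had a ZBTB21 peak within 1 kb, and Cd3eap and Crcp had none.

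The Mediator genes with a ZBTB21 peak were Med14 (backbone), Med20 (head), Med31 (middle) and Med29, and the Gtf genes were the TFIIH core subunits Gtf2h1 and Gtf2h3 and the TFIIIC subunit Gtf3c1. The widest of the 13 peaks, 2307 bp at chr17:47609850-47612156, covered the start of Med20 and also lay within 1 kb of Bysl, and the narrowest, 331 bp at chr7:105744263-105744593, lay over Taf10. A head-to-head partner was present at 6 of the 13 genes (46.2%, 23.2 to 70.9%). Over all genes with a ZBTB21 peak the share was 27.6%, which the interval includes. At 5 of them (Gtf2h1, Gtf2h3, Gtf3c1, Med20 and Med29) the ZBTB21 peak lay within 1 kb of a TSS of another gene as well, whereas at Taf11 it lay at an internal TSS with no other gene within 1 kb.

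An ATAC-seq peak within 1 kb was present at 9 of the 13 genes with a ZBTB21 peak (69.2%, 42.4 to 87.3%), against 52.0% of the 1344 protein-coding genes with one. Of the 89 other genes of the set, 40 had an ATAC-seq peak (44.9%), and the difference of 24.3 points had an interval from -4.49 to 44.9. Both kinds of peak were thus present at 8.82% of the set, against 3.21% of all genes. At each of the 9 the ZBTB21 peak overlapped an ATAC-seq peak, at Taf10 and Taf7 with its whole length, 331 and 404 bp, and at Taf13 with 561 of 1110 bp. At Med14 the overlap was 472 of 794 bp, and the ATAC-seq peak reached further into the gene. Of all ZBTB21 peaks 43.8% overlapped an ATAC-seq peak. Gtf2h3, Gtf3c1, Med31 and Taf2 had a ZBTB21 peak and no listed ATAC-seq peak within 5 kb, the nearest being 19239, 7895, 5794 and 32669 bp away. All 5 TFIID genes with an ATAC-seq peak within 1 kb had a ZBTB21 peak as well. The best ATAC-seq scores of the 9 genes had a median of 825 and those of the 40 others one of 784, with ranges of 569 to 886 and 541 to 924.

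**Figure D5:**
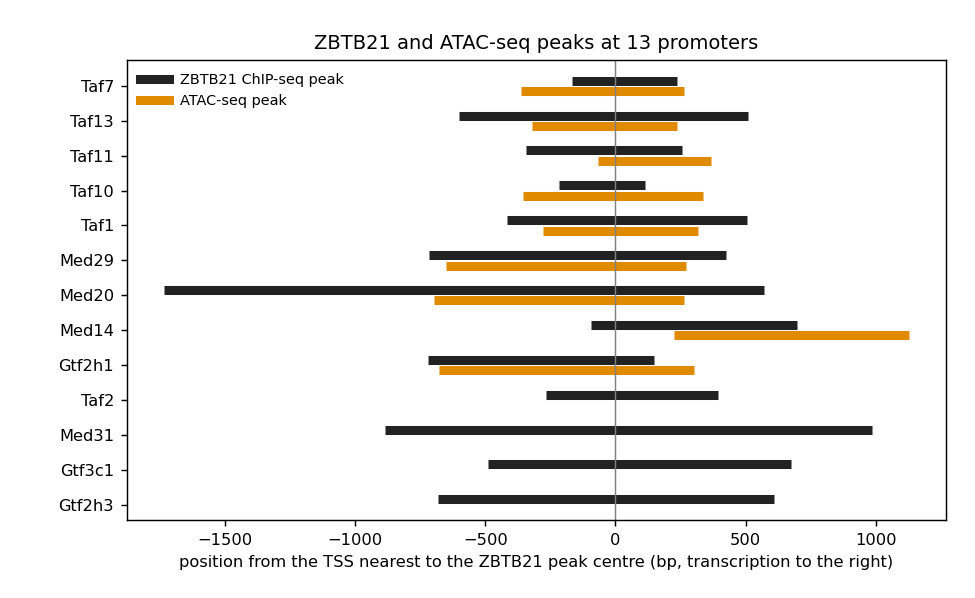
ZBTB21 ChIP-seq peaks (black) and the ATAC-seq peaks that overlap them (orange) at 13 genes, in bp from the TSS nearest to the centre of the ZBTB21 peak (grey line, transcription to the right). At 9 genes the peaks overlap, and at Taf2, Med31, Gtf3c1 and Gtf2h3 the ZBTB21 peak stands without an ATAC-seq peak.

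In the 11 promoter windows at hand of the genes with a ZBTB21 peak, GGGCGG was present in 9, CCGGAA in 8 and TGACGT in 6. GGGCGG was found in 62.5% of the windows of the set and in 46.3% of those of all genes. For CCGGAA the shares were 48.9% and 19.1%, and for TGACGT 14.8% and 8.76%. TGACGT stands in capitals, on either strand, in Taf13, Taf10 and Gtf3c1 above. The 11 windows are few, and motifs were not counted over all genes with a ZBTB21 peak.

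The study also ranked long Hi-C loops by their ZBTB21 signal and the size of the cohesin change after ZBTB21 degradation. Both were read at ATAC-seq peaks within the loop. It named 500 loops ZBTB21-responsive and 500 less responsive. By its definition the first hold ZBTB21 peaks and cohesin peaks that fell, and the second hold neither, so that a gene with a ZBTB21 peak cannot lie in a less-responsive loop. A TSS lay between the outer edges of a responsive loop at 16 of the 102 genes (15.7%, 9.89 to 24.0%), against 15.3% of all genes, a share at the background. No gene had a TSS in a less-responsive loop, against 5.84% of all genes, and a count of 0 allows up to 2.94% by the limit of 3 counts (Wilson upper bound 3.63%). No TSS of the set lay in a 25 kb anchor of a responsive loop, against 1.99% of all genes, a count near the background. Among the genes with a TSS inside a responsive loop, the TSS of Med6 was the nearest to an anchor, 4.99 kb away.

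The 16 genes lay in 26 loops that merge into 14 regions. By role, 5 were polymerase genes (Polr1c, Polr1d, Polr2a, Polr2h and Polr2j), 6 Mediator genes (Med6, Med7, Med9, Med11, Med13l and Med27), 2 TAF genes (Taf11 and Taf5l) and 3 Gtf genes (Gtf2f2, Gtf2h1 and Gtf3a). Polr2a and Med11 lay in 1 region, chr11:69175001-70775000, which held 95 ATAC-seq and 19 ZBTB21 peaks, and Gtf3a and Polr1d shared both of their loops, in chr5:146675001-147875000. A loop with genes of the set held 6 to 74 ATAC-seq peaks, with a median of 29. Within responsive loops 10 of the 16 genes had an ATAC-seq peak within 1 kb (62.5%, 38.6 to 81.5%), against 33.7% of all genes there. Outside these loops 39 of 86 genes of the set had one (45.3%, 35.3 to 55.8%), and the 2 intervals overlap. Gtf2h1 and Taf11, 2 of the 16 genes, had a ZBTB21 peak at the TSS (12.5%). Over all genes in responsive loops the share was 10.1%, so the count was near the background. At the other 14 the ZBTB21 peaks of the loop lay elsewhere in it.

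The genes of the set are seldom neighbours. The pairs within 100 kb were Med17 and Taf1d, 26 kb apart, and Polr2g and Taf6l, 12.1 kb apart, and neither pair shared a peak. On the X chromosome 2 of 5 genes, Med14 and Taf1, had an ATAC-seq peak, and both had a ZBTB21 peak. Each share was thus 40%, with an interval of 11.8 to 76.9%. On autosomes 48.5% of the set had an ATAC-seq peak and 11.3% a ZBTB21 peak. Over all protein-coding genes the shares were 29.9% and 6.17%. The 5 genes are too few to describe the X chromosome.

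Further genes of the pathway outside the symbol rule gave similar shares of ATAC-seq peaks. The list of 42 included TBP and its relatives, kinases and cyclins of Mediator, TFIIH and P-TEFb, polymerase I and III factors, and elongation factors. Of the 42 genes, 20 had a peak within 1 kb (47.6%, 33.4 to 62.3%) and 29 within 5 kb (69.0%). Over all protein-coding genes the shares were 29.9% and 41.0%. The TBP gene Tbp scored 843, Cdk19, a kinase of the Mediator kinase module, scored 923, and Snapc1, of the factor for snRNA genes, scored 899. A ZBTB21 peak lay within 1 kb of 10 (23.8%), against 6.17% of all genes. Of these 10 genes, 3 had an ATAC-seq peak within 1 kb, Snapc1, Supt6 and Znrd1. The share was 9 of 13 in the set and 52.0% over all genes with a ZBTB21 peak. A TSS lay in a responsive loop at 8 (19.0%, against 15.3% of all genes). A less-responsive loop held a TSS of 2, Ccnh and Tbpl2 (4.76%, against 5.84%). Both loop shares were near the background.

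As sets of genes for other large complexes, 22 of 40 proteasome subunit genes (55.0%) and 25 of 56 translation initiation factor genes (44.6%) had an ATAC-seq peak within 1 kb. The set of 102 genes differed from them by -6.96 points (interval -24.1 to 11.0) and 3.40 points (-12.6 to 19.0), so it could not be told apart from either. A ZBTB21 peak was present at 5 of 40 and 9 of 56 of these genes, 12.5% and 16.1%, against 6.17% of all genes. A less-responsive loop held a TSS of 0 of 40 proteasome genes and of 1 of 56 translation initiation factor genes (1.79%). Their Wilson intervals reach up to 8.76% and 9.45%, and both include the 5.84% of all genes. The count of 0 in less-responsive loops was thus not shown to be particular to the 102 genes.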

How the data were processed

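ATAC-seq peaks of untreated V6.5 mESCs were taken from the deposited list (mm10), in which the authors gave each peak a score. It is 1 list for both replicates, and how they were combined is not given in the sources used here. The submitters' processing notes name cutadapt 2.6, Bowtie2 2.3.5.1 and MACS2 2.1.1. The ATAC-seq peak calling steps, including any shift of cut sites, are not given in the sources used here. The lowest score, 540, is what an IDR of 0.05 gives when scaled, an inference from the values alone. ZBTB21 peaks and loops are intervals of the study.

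TSSs were the starts of RefSeq transcripts on GRCm38, and a peak counted with at least 1 bp within the distance. Shares have Wilson 95% intervals and differences Newcombe intervals (Python 3.11.15, pandas 2.3.3, statsmodels 0.14.6). The counting was tested on simulated intervals. Members and lists were chosen with earlier results of these data known. Named genes were 23 lead subunits, the 10 highest and 10 lowest scores, genes with a ZBTB21 peak, a loop, no peak within 5 kb or more than 1 peak within 1 kb; further genes were named after their values were seen. Promoters were matched for 88 of 102 genes; those without a match included Gtf2e2, Med8, Med23, Med24, Med30, Polr2d, Polr2g, Polr2k, Polr3a, Polr3d, Taf2, Taf4b and Taf7. Values of 1 gene are not reported here by name.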

Additional observations from a re-analysis of the deposited data

How the results depend on the processing

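Of 50 values recomputed for 11 results under other settings, 48 stayed within 1.5 times the reported value. The 2 that moved concern loops. With the anchors of responsive loops alone the count was 0 (1.99% of all genes), against 16 in the whole span (15.3%), and with any part of a gene in place of a TSS, 1 gene (Med12l) lay in a less-responsive loop (6.24% of all genes), against 0 (5.84%). With peaks above the median score alone, the count within 1 kb was 38 (19.4% of all genes) and that within 5 kb 44 (26.9%). With 1 TSS a gene the count within 1 kb was 48 (25.4% of all genes), without Taf11, and within 5 kb 59 (36.9%), without Polr1a and Polr3gl. With curated transcripts alone the 2 counts were 49 (27.5% of all genes) and 59 (37.8%). No paired analysis was possible because the deposited list gives no values per replicate, and for the same reason no replicate could be left out. Depth and the authors' threshold limit what is listed, so a gene without a peak may have accessible DNA below it.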
